A study of Mus musculus with 6 samples.

Results

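The SLC25 family of mitochondrial carriers was examined in whole heart tissue of Angiotensin II-treated mice, labelled either TET2KO, an endothelial-specific knockout of Tet2, or WT. Its members were taken as every gene of the count table whose symbol is Slc25a followed only by digits, which gave 47 of 49315 genes. A total of 39 of these 47 passed the filter on low counts and were tested among 14370 genes. The other 8, Slc25a31, Slc25a41, Slc25a54, Slc25a21, Slc25a2, Slc25a18, Slc25a43 and Slc25a48, had at most 11 reads in any library and were not tested.

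Carriers of this family sit in the inner mitochondrial membrane and move nucleotides, phosphate, carboxylates, amino acids, acylcarnitines, cofactors and metals between the cytosol and the matrix. Most exchange a substrate on one side for a substrate on the other, and the ADP/ATP carrier is the route by which ATP made in the matrix reaches the cytosol. In the heart, where contraction draws on fatty acid oxidation, the ADP/ATP, phosphate and carnitine carriers serve the main flow of energy. TET2 oxidises methylated cytosine in DNA, a step toward its removal.

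The samples were mid-ventricular tissue of adult mice, 3 labelled TET2KO with an endothelial-specific knockout of Tet2 and 3 labelled WT. All 6 mice received Angiotensin II, a peptide that raises blood pressure, at 1 mg/kg/day for 28 days from a subcutaneous osmotic minipump, so no group without it was compared. Neither the Cre driver nor the deleted exons, the strain or the sex is given in these sources. RNA came from whole tissue, in which fewer cells of a type and less RNA per cell cannot be told apart.

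The libraries held 26810691 to 30418909 counted reads in the TET2KO group and 22124844 to 26569073 in the WT group, with TMM normalization factors of 1.12 to 1.22 in TET2KO and 0.808 to 0.922 in WT. Tet2 itself went against the labels, at 14.6, 8.01 and 10.4 CPM (counts scaled by library size and those factors) in the libraries labelled TET2KO, against 4.27, 4.33 and 3.08 CPM in those labelled WT. Its log2 fold change was 1.49 ± 0.29 (SE; adjusted p = 0.0065), and 0.27 ± 0.17 (adjusted p = 0.21) once a trend of fold change with transcript length and GC content had been removed. Whole-gene counts in whole tissue do not isolate the deleted exons or the endothelial cells, so every direction given here is one between libraries as labelled. Across tested genes, log2 CPM of replicate 2 labelled TET2KO correlated (Pearson) at 0.973 with WT replicate 2, against 0.931 and 0.962 with the other replicates labelled TET2KO. All 8 cardiomyocyte markers had reads in every library, with a summed level of 54290 to 59513 CPM in libraries labelled TET2KO and 77892 to 94455 CPM in those labelled WT. The 8 endothelial markers summed to 472 to 842 CPM in TET2KO libraries and 443 to 492 CPM in WT libraries, with overlap. In TPM, a length-scaled abundance, they summed to 217.1 to 426.5 in TET2KO and 155.9 to 170.5 in WT, without overlap. As counted, 5 of the 8 were higher and 2 lower (33.4% and 29.4% of all genes). With the trend removed 4 were higher and 2 lower (21.9% and 24.3%).

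Promoter sequences are shown for the most abundant carrier (Slc25a4) and for those with the largest changes as counted. These were the pair with the largest increases (Slc25a22 and Slc25a42) and the carrier with the largest decrease (Slc25a33). The windows are those of RefSeq on GRCm38.p6, from 250 bases before to 50 bases after the gene's start, on the minus strand of chr8:46211013-46211312, chr7:141437825-141438124, chr8:70212232-70212531 and chr4:149774218-149774517 in the order just given. Capitals mark a GC box, the binding motif of Sp-type factors (GGGCGG, searched on both strands).
Slc25a4: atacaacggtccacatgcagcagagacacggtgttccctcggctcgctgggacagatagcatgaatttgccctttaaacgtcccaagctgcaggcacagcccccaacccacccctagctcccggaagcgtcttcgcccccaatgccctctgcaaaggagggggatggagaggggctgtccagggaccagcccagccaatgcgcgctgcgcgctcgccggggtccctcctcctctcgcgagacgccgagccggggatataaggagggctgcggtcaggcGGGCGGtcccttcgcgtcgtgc
Slc25a22: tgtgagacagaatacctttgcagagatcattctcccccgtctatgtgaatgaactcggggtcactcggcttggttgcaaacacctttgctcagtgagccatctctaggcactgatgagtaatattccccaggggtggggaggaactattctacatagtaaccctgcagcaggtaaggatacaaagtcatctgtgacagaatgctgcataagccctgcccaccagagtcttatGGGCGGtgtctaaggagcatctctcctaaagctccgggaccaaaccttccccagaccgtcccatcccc
Slc25a42: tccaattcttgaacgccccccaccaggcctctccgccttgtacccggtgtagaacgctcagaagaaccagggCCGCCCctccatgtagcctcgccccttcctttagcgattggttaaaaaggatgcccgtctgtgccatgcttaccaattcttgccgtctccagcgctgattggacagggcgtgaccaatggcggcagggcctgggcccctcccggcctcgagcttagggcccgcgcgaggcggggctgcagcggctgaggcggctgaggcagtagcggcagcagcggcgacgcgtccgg
Slc25a33: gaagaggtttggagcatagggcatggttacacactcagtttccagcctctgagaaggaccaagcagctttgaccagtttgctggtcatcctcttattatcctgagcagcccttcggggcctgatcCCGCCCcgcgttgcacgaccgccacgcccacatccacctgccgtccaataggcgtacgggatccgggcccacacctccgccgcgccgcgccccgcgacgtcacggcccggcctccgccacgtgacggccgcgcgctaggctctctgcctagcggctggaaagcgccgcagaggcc
Slc25a44 and Slc25a37 had no window in the table. The Slc25a4 window is centred on a RefSeq start 222 nt from that of GENCODE, and the Slc25a22 window is 1 of 3 in the table. A GC box was found in 27 of the 30 tested members with a window (90%), against 35.7% of all 32851 windows. These sets are unlike, since 1 window was used per member, while all windows hold several for some genes and include untested genes. The share among windows of tested genes was not taken. A form of the NRF1 motif, searched on both strands, matched 1 member, Slc25a3 (3.33%, against 4.6% of all windows), and the motif of oestrogen-related receptors (TNAAGGTCA, both strands) matched 0 of 30 (1.28% of all windows). Each of the 4 windows held 1 GC box and neither of the other motifs, whichever way its gene moved, and a match is a description of letters only.

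Between the libraries as labelled, 5 tested members were higher in TET2KO (12.8%, against 33.4% of all genes tested) and 13 were lower (33.3%, against 29.4%), by edgeR's quasi-likelihood test with Benjamini-Hochberg adjustment at 0.05. In either direction 18 members passed (46.2%, against 62.9% of all genes), a smaller share than among all genes. The groups did not overlap for 28 members (71.8%, against 73.5% of all genes). The median log2 fold change was -0.24 over the 39 members and 0.05 over all genes. With libraries scaled to total reads the split became 13 higher and 6 lower (45.5% and 15.8% of all genes, 61.3% in all). The median was then 0.18 over the members and 0.47 over all genes. On log2(TPM + 1) with limma the split became 16 higher and 1 lower (49.9% and 12.7% of all genes, 62.6% in all). There the median was 0.34 over the members and 0.41 over all genes, so the sign of the members' median depended on the scaling. Changes of at least 1 on the log2 scale were called for 9 members (23.1%, against 42.6% of all genes).

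Fold changes followed transcript length across the transcriptome, and the carriers shared in it. The Spearman correlation of log2 fold change with the length of the longest transcript was 0.41 over 39 members and 0.61 over 14341 genes, and 0.31 and 0.26 with GC content. These points share the same 6 libraries and are given as a description. Of the 19 members with transcripts shorter than 2784 nt, 1 was higher and 11 were lower, while of the 20 longer ones 4 were higher and 2 lower. The median log2 fold change was -0.55 in the shorter and -0.12 in the longer members. With the trend in length and GC removed, the correlation with length was -0.04 over the members, 6 members were higher (15.4%, against 21.9% of all genes) and 13 lower (33.3%, against 24.3%), beside 46.2% of all genes in either direction. With it removed, 0 of the shorter members were higher and 7 lower, and 6 of the longer ones were higher and 6 lower. A total of 11 members passed both ways with the same sign (28.2%, against 32.8% of all genes) and 0 passed both with opposite signs (1.61% of all genes).

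**Figure D1:**
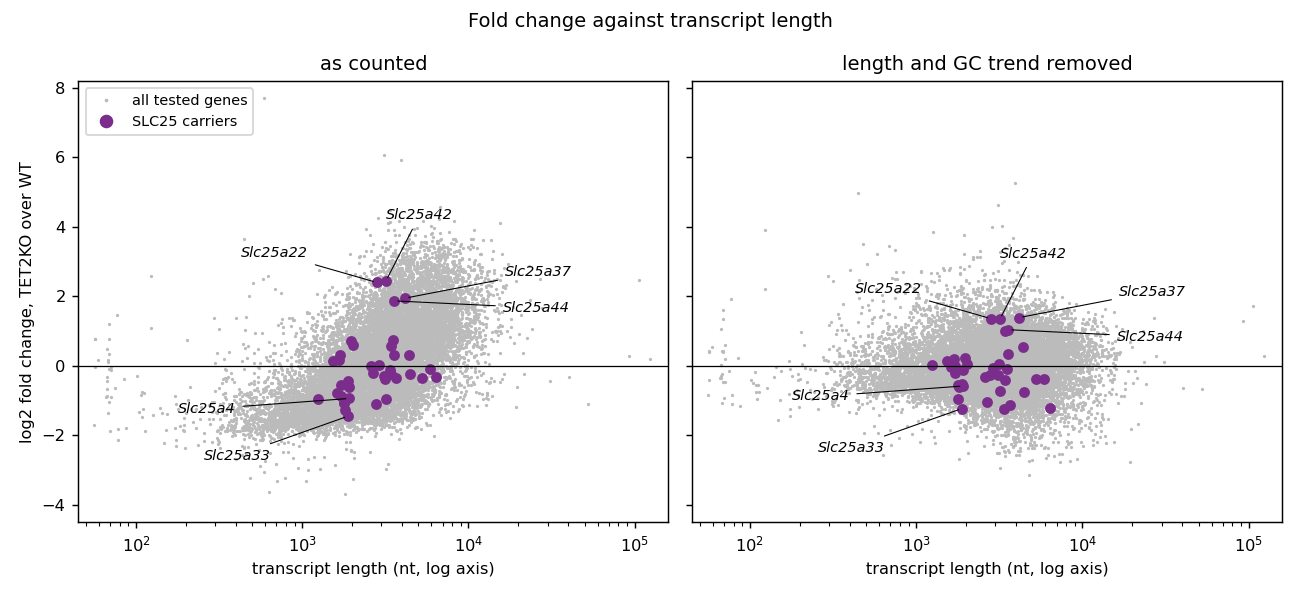
Log2 fold change (TET2KO over WT as labelled) of tested members (purple) and of all tested genes with a length (grey), plotted against the length in nt of the longest transcript (log axis), as counted on the left and with the length and GC trend removed on the right. The carriers rise with length as counted (Spearman 0.41) and do not once the trend is removed (-0.04).

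The calls that held throughout belonged to 5 carriers. Slc25a22, Slc25a42, Slc25a37 and Slc25a44 were higher and Slc25a33 was lower, with the same call in each of the 21 alternatives tried, including every left-out library and the removal of the trend. Slc25a38, a glycine carrier, kept its lower call in 20 of 21, with an adjusted p of 0.051 on log2(TPM + 1). All other members past the test lost the call under at least 1 alternative. On log2(TPM + 1) Slc25a33 was the 1 lower call (-0.84, adjusted p = 0.011). Not past on that scale were Slc25a5 (-0.34), Slc25a3 (-0.16), Slc25a14 (-0.49), Slc25a40 (-0.41), Slc25a17 (-0.24) and Slc25a53 (-0.10). The 8 members added as higher both on that scale and with total reads were Slc25a1, Slc25a10, Slc25a24, Slc25a25, Slc25a28, Slc25a30, Slc25a39 and Slc25a46. With merged exon length in the trend, Slc25a3 (-1.08), Slc25a26 (-0.88) and Slc25a40 (-1.09) passed as lower, unlike with the longest transcript.

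**Figure D2:**
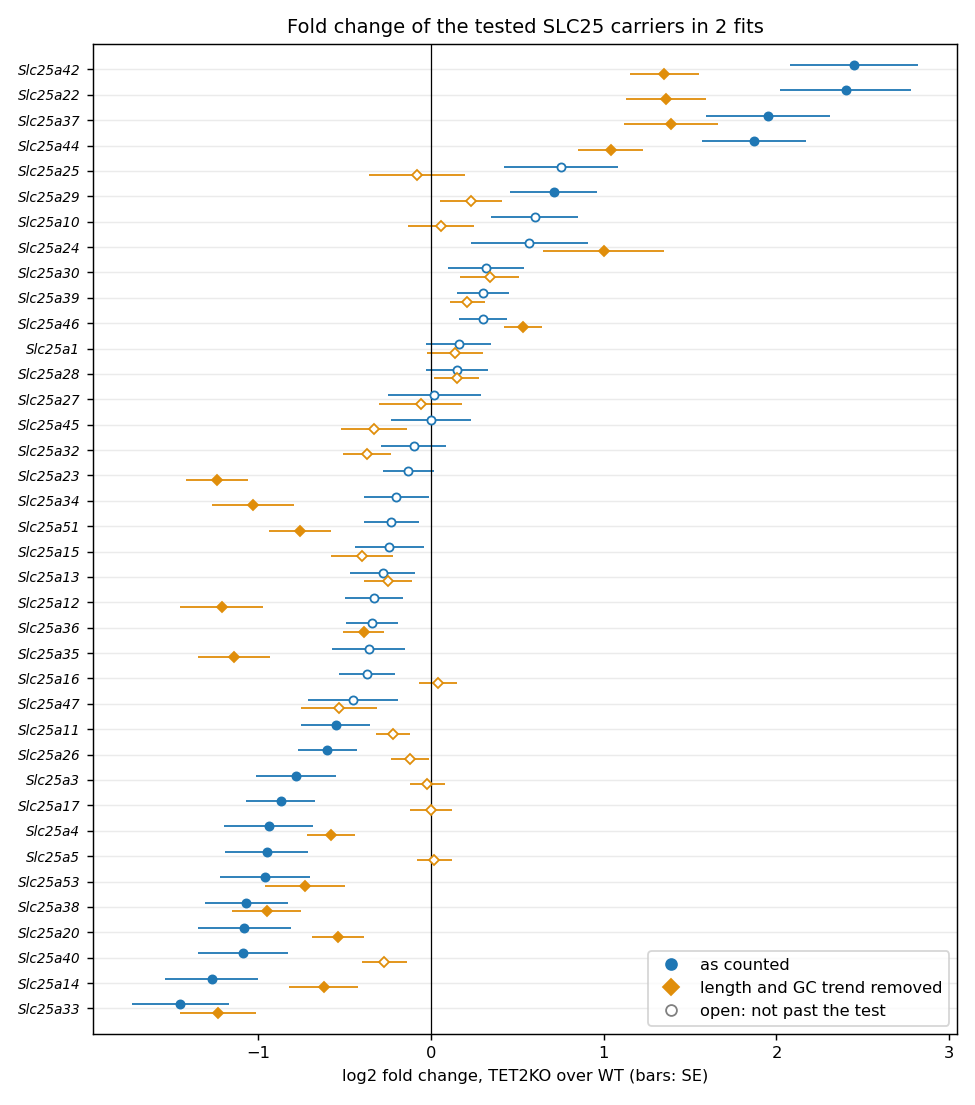
Log2 fold changes (TET2KO over WT as labelled, with SE) of tested members in order of fold change, as counted (circles) and with the length and GC trend removed (diamonds), filled where past the test. Slc25a42 and Slc25a22 lie farthest to the right as counted, at 2.45 and 2.40, and Slc25a33 farthest to the left at -1.45.

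Levels within the family were dominated by the ADP/ATP carrier of heart and muscle, Slc25a4. Compared per length as TPM, a length-scaled abundance,, Slc25a4 made up 67.4%, 71% and 70.5% of the summed TPM of the family in the libraries labelled TET2KO, against 74.3%, 72.6% and 74% in those labelled WT. The groups did not overlap, and the share averaged 69.6% ± 1.92 in TET2KO and 73.7% ± 0.907 in WT (SD, n = 3 each). The difference of -4.05 percentage points had a two-sided exact permutation p of 0.1, the smallest that 3 against 3 allows, and 0.125 after Benjamini-Hochberg adjustment over 5 carriers. Slc25a3, Slc25a11, Slc25a5 and Slc25a20 came next, and the top 5 carriers held 93.5% of the family's TPM. Slc25a11 took 7.09% ± 0.609 of it in TET2KO and 5.68% ± 0.268 in WT, without overlap (exact p = 0.1).

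The order below Slc25a4 depends on the length used. The deposited TPM rest on the merged length of all exons for most members. For Slc25a3 this is 5550 nt, against 1612 nt for its longest protein-coding transcript. Per length of the longest transcript the mean share of Slc25a3 was 18.9% in place of 7.85%, that of Slc25a4 was 61.2% in place of 71.6%, and Slc25a5 (5.64%) and Slc25a11 (5.52%) changed places.

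**Figure D3:**
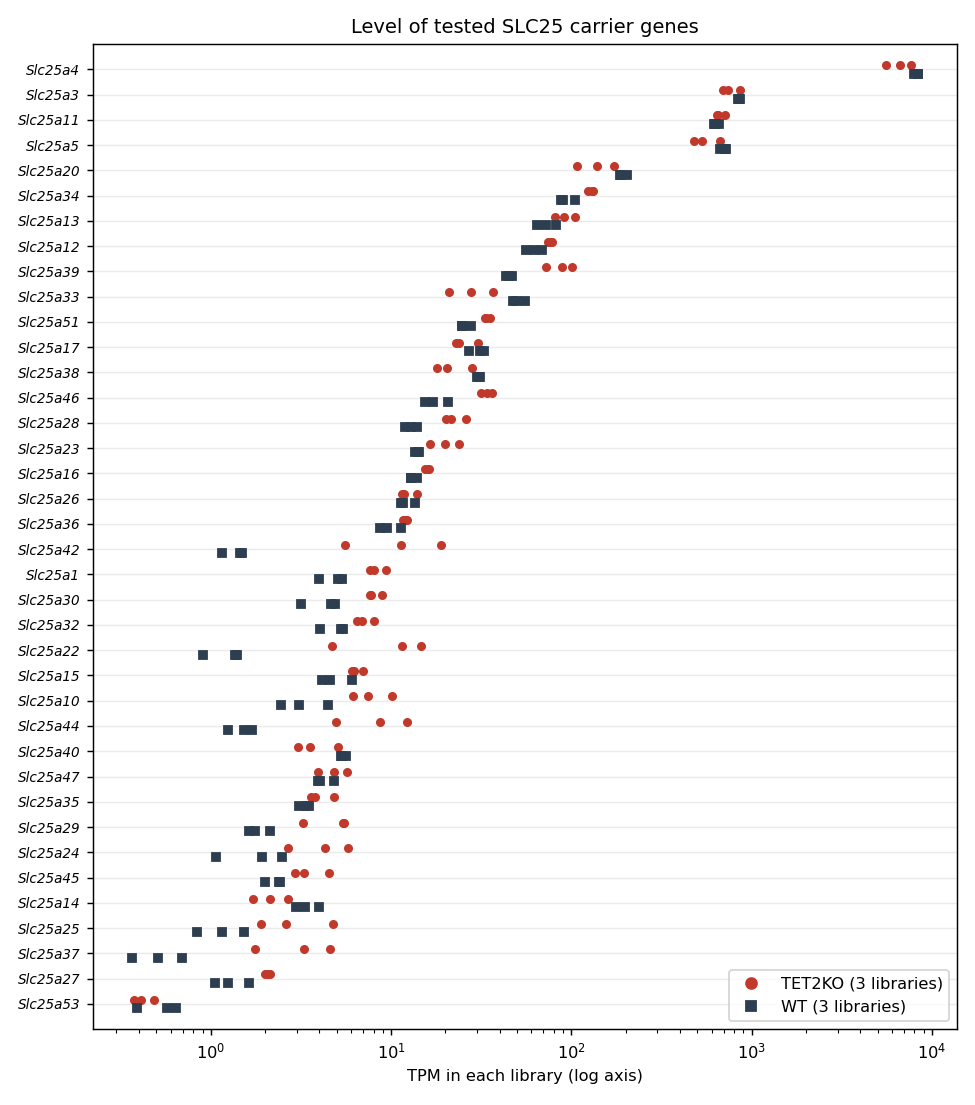
Deposited TPM (log axis) of tested members in each of the 6 libraries, labelled TET2KO (circles) and WT (squares). Slc25a4 stands above every other carrier in all 6 libraries, and the low members Slc25a22, Slc25a42, Slc25a37 and Slc25a44 are higher in TET2KO.

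The summed level of the family was 8384, 13038 and 10516 CPM in the libraries labelled TET2KO, against 19306, 17013 and 20475 CPM in those labelled WT. Sums did not overlap, and the group means of the log2 sums differed by -0.85, TET2KO minus WT (exact permutation p = 0.1, the smallest possible). On summed TPM this difference was -0.24 (exact permutation p = 0.1), and without Slc25a4 it was -0.04 (exact p = 0.6). Without Slc25a4 the difference in summed CPM was -0.66, again without overlap (exact permutation p = 0.1). With the trend removed the difference in CPM was -0.45.

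Carriers of adenine nucleotides and phosphate numbered 6 tested members, of which 0 rose, 3 fell and 3 did not pass. Among all genes 33.4% rose and 29.4% fell. Slc25a4 (chr8:46206797-46211284, minus strand, GRCm38) stood at 4850, 8087 and 6442 CPM in the libraries labelled TET2KO, against 12722, 10908 and 13477 CPM in those labelled WT. All 3 TET2KO values lay below the WT values, with replicate 2 nearest to them. Slc25a4 fell, with a log2 fold change of -0.94 ± 0.26 (adjusted p = 0.015) and -0.58 ± 0.14 with the trend removed (adjusted p = 0.011). The call as counted was lost without TET2KO replicate 3 (-0.90, adjusted p = 0.073), WT replicate 1 (-0.93, 0.057) or WT replicate 3 (-0.88, 0.063), and that with the trend removed without WT replicate 1 (-0.57, 0.055) or WT replicate 3 (-0.54, 0.058). It was also not past with libraries scaled to total reads (-0.51, adjusted p = 0.067), on log2(TPM + 1) (-0.33, adjusted p = 0.15) and with the replicate block (-0.96, adjusted p = 0.052), which leaves 13 of 21 alternatives with the same call. The cardiomyocyte markers were lower in summed CPM, with 3 of 8 higher and 4 lower as counted (33.4% and 29.4% of all genes). With the trend removed 4 of these markers were higher and 1 lower (21.9% and 24.3%). Their part in the result was not tested.

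Slc25a3, the phosphate carrier, had 1426, 2145 and 1699 CPM in TET2KO libraries, against 3021, 2738 and 3271 CPM in WT libraries. Slc25a5, the more widely expressed ADP/ATP carrier, had 292, 490 and 363 CPM in TET2KO, against 711, 691 and 808 CPM in WT. Neither pair of groups overlapped, and the log2 fold changes were -0.78 ± 0.23 (adjusted p = 0.019) for Slc25a3 and -0.95 ± 0.24 (adjusted p = 0.011) for Slc25a5. Removing the trend in the length of the longest transcript and GC ended both calls. The estimates were -0.02 ± 0.10 (adjusted p = 0.87) for Slc25a3 and 0.02 ± 0.10 (adjusted p = 0.86) for Slc25a5. With merged exon length in the trend, Slc25a3 passed as lower. Without TET2KO replicate 3, WT replicate 1 or WT replicate 3 the call of Slc25a3 was also lost (-0.71, -0.78 and -0.72), as was that of Slc25a5 without TET2KO replicate 3 (-0.87, adjusted p = 0.055). Slc25a5 has near-identical processed pseudogenes, Gm5560 (98.3% identity) and Gm5529 (96.8%), to which 40 and 8 reads were counted over all libraries. Slc25a4 exceeded Slc25a5 in every library, with log2 TPM ratios of 3.54, 3.53 and 3.64 in TET2KO and 3.65, 3.47 and 3.54 in WT. That ratio differed by 0.02 between the groups (exact p = 1), and by -0.61 with the trend removed.

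The calcium-regulated ATP-Mg/phosphate carriers changed call with the trend. Slc25a23 had 46.8, 39.1 and 43.5 CPM in TET2KO and 46, 43.9 and 51.9 CPM in WT, which overlapped. Its log2 fold change was -0.13 (adjusted p = 0.47) as counted, -1.24 ± 0.18 (adjusted p = 0.004) with the trend removed and 0.48 on log2(TPM + 1). Slc25a24 had 0.57 (adjusted p = 0.18) as counted and 1.00 ± 0.35 (adjusted p = 0.042) with the trend removed. The first became a call without TET2KO replicate 2 (0.78), and the second was lost without TET2KO replicate 1 (0.72), TET2KO replicate 3 (0.96), WT replicate 2 (0.96) or WT replicate 3 (0.76). Slc25a25 did not pass either way (0.75, adjusted p = 0.076, as counted), and passed as counted without TET2KO replicate 2 (0.81) or replicate 3 (1.04).

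Of the 3 tested carriers of di- and tricarboxylates, 1 fell as counted (29.4% of all genes) and 0 passed with the trend removed (46.2%). Slc25a11, which exchanges oxoglutarate for malate, had 503, 675 and 572 CPM in TET2KO libraries, against 859, 810 and 899 CPM in WT libraries. The groups did not overlap, and the log2 fold change was -0.55 ± 0.20 (adjusted p = 0.038). This call was lost with the trend removed (-0.22 ± 0.10, adjusted p = 0.12, or -0.28 and past without TET2KO replicate 2), the value was 0.07 on log2(TPM + 1), and without each library except TET2KO replicate 2 it was also lost (-0.60 to -0.42). Slc25a1, the citrate carrier, and Slc25a10, the dicarboxylate carrier, did not pass (0.16 and 0.60, adjusted p = 0.49 and 0.063), the second passing without TET2KO replicate 2 (0.71).

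Amino acid carriers held 3 of the 5 increases. Of 7 tested members, 3 rose, 1 fell and 3 did not pass (33.4% of all genes rose and 29.4% fell). With the trend removed 2 rose and 2 fell (21.9% and 24.3%). Slc25a22 (chr7:141429744-141437892, minus strand), a carrier that brings glutamate into the matrix, had 32.6, 12.6 and 28.6 CPM in the libraries labelled TET2KO, against 3.5, 4.74 and 5.77 CPM in those labelled WT. Replicate 2 of TET2KO was the lowest of its group and still above every WT library. Slc25a22 was 5.27-fold higher (log2 2.40 ± 0.38, adjusted p = 0.0065), and 1.36 ± 0.23 with the trend removed (adjusted p = 0.0041).

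Slc25a44 (chr3:88410498-88425139, minus strand), the carrier of branched-chain amino acids, had 16.3, 7.91 and 12.9 CPM in TET2KO libraries, against 3.89, 3.19 and 3.08 CPM in WT libraries. Again the groups did not overlap. Slc25a44 was 3.65-fold higher (log2 1.87 ± 0.30, adjusted p = 0.0065), and 1.04 ± 0.19 with the trend removed (adjusted p = 0.0045). The length and GC trend alone amounted to 0.96 for Slc25a22 and 0.78 for Slc25a44 on the log2 scale.

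Slc25a38 (chr9:120110374-120124504, plus strand), which supplies glycine for haem synthesis, had 18.4, 34.8 and 23.3 CPM in TET2KO and 54.9, 47.7 and 57.7 CPM in WT, without overlap. It fell, at -1.07 ± 0.24 as counted (adjusted p = 0.0084) and -0.95 ± 0.20 with the trend removed (adjusted p = 0.0066). The 6 erythroid markers fell too, all 6 in both estimates (29.4% and 24.3% of all genes fell). These markers summed to 166 to 743 CPM in TET2KO and 1558 to 7055 CPM in WT. Their part in the result was not tested. Slc25a29, a carrier of basic amino acids, had 5.21, 3.80 and 5.91 CPM in TET2KO and 2.98, 3.23 and 2.91 CPM in WT, without overlap. It passed as counted (0.71 ± 0.25, adjusted p = 0.036), did not with the trend removed (0.23, adjusted p = 0.33), and lost the call without any 1 library except TET2KO replicate 2 (0.61 to 0.75).

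The aspartate/glutamate carriers of the malate-aspartate shuttle are Slc25a12 and Slc25a13. Slc25a12 had 201, 254 and 238 CPM in TET2KO, against 294, 296 and 283 CPM in WT, without overlap, and Slc25a13 had 128, 179 and 128 CPM in TET2KO, against 177, 183 and 168 CPM in WT, with overlap. Neither passed as counted (-0.33 ± 0.17, adjusted p = 0.12, and -0.28 ± 0.19, adjusted p = 0.23), though both did without TET2KO replicate 2 (-0.38 and -0.44). With the trend removed Slc25a12 fell, at -1.21 ± 0.24 (adjusted p = 0.0055), and Slc25a13 was at -0.25 (adjusted p = 0.17), and -0.40 without TET2KO replicate 2, which passed. On log2(TPM + 1) Slc25a12 was at 0.29 and Slc25a13 at 0.34, the opposite direction, and neither passed (adjusted p = 0.08 and 0.09). Their log2 TPM ratio was -0.27 ± 0.20 in TET2KO and -0.22 ± 0.03 in WT (SD, n = 3 each; exact p = 0.7), a difference of -0.04, or -1.02 with the trend removed. The ratio was below 0 in all 6 libraries, so Slc25a13 was the higher of the pair per length in each. Slc25a15, an ornithine carrier, did not pass (-0.24, adjusted p = 0.31), but did with the trend removed and without TET2KO replicate 2 (-0.56).

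Slc25a20, the carnitine/acylcarnitine exchanger that admits fatty acyl groups for oxidation, had 192, 376 and 277 CPM in the libraries labelled TET2KO, against 636, 533 and 618 CPM in those labelled WT. No TET2KO value reached the WT range. Slc25a20 fell, with a log2 fold change of -1.08 ± 0.27 (adjusted p = 0.011), and -0.54 ± 0.15 with the trend removed (adjusted p = 0.018). The second call was lost without TET2KO replicate 3 (-0.57), WT replicate 1 (-0.51) or WT replicate 3 (-0.55). On log2(TPM + 1) Slc25a20 was at -0.49 and did not pass (adjusted p = 0.054). Of 8 tested enzymes of the malate-aspartate shuttle and carnitine system, 5 were higher and 1 lower as counted (33.4% and 29.4% of all genes), and 6 and 0 with the trend removed (21.9% and 24.3%). The lower one was Mdh1, the cytosolic malate dehydrogenase (-0.55 ± 0.21, adjusted p = 0.048).

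Cpt1a and Cpt1b, which make acylcarnitine at the outer membrane, had log2 fold changes of 1.86 ± 0.34 and 0.97 ± 0.21 (adjusted p = 0.0065 and 0.0074), and stood at 0.95 and 0.46 with the trend removed, both past the test. Crat, carnitine acetyltransferase, rose by 1.5 ± 0.25 (adjusted p = 0.0065) but had 0.28 with the trend removed (adjusted p = 0.079).

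**Figure D4:**
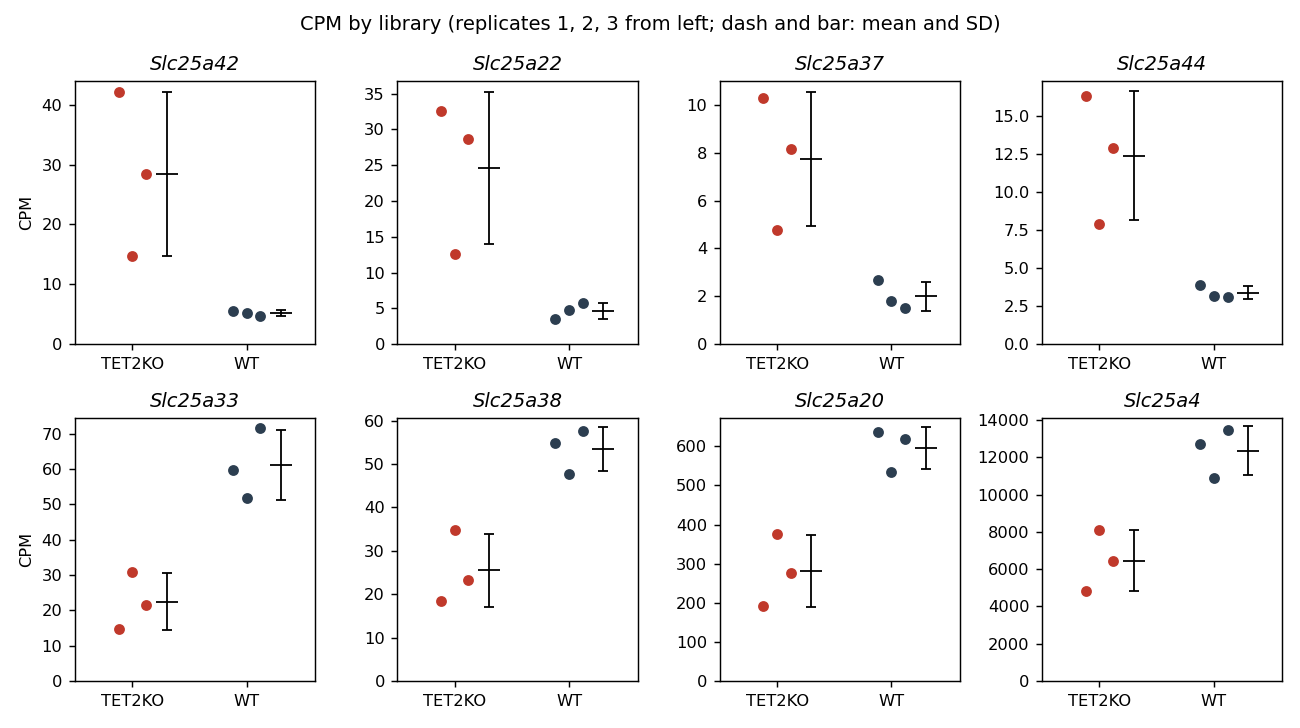
CPM (linear axes from 0) in each library for 8 carriers past the test both as counted and with the trend removed, libraries labelled TET2KO left of those labelled WT, with mean and SD. TET2KO replicate 2 is the library of its group nearest to WT for Slc25a42 (14.8 CPM), Slc25a22 (12.6 CPM) and Slc25a33 (30.9 CPM).

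As counted, carriers of cofactors and other nucleotides included the largest increase and the largest decrease. With the trend removed these belonged to Slc25a37 (1.39) and Slc25a23 (-1.24), of other roles. Of the 9 tested carriers of cofactors and other nucleotides, 1 rose, 4 fell and 4 did not pass (33.4% of all genes rose and 29.4% fell). The split was the same once the trend was removed (21.9% and 24.3%). Slc25a42 (chr8:70184340-70212305, minus strand), which brings coenzyme A into the matrix, had 42.1, 14.8 and 28.4 CPM in TET2KO libraries, against 5.62, 5.23 and 4.76 CPM in WT libraries. The lowest TET2KO library stood above all WT libraries. Slc25a42 was 5.46-fold higher (log2 2.45 ± 0.37, adjusted p = 0.0065), and 1.35 ± 0.20 with the trend removed (adjusted p = 0.004), the trend itself amounting to 1.00.

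Slc25a33 (chr4:149744036-149774277, minus strand), a carrier of pyrimidine nucleotides, had 14.8, 30.9 and 21.5 CPM in the libraries labelled TET2KO, against 59.7, 51.9 and 71.7 CPM in those labelled WT. The groups did not overlap. Slc25a33 was 2.73-fold lower (log2 -1.45 ± 0.28, adjusted p = 0.0065), and -1.23 ± 0.22 with the trend removed (adjusted p = 0.0043). An antisense gene, Gm13068, overlaps its exons by 281 nt, and no source used here states how strand was counted. Its relative Slc25a36, also a pyrimidine nucleotide carrier, had -0.34 (adjusted p = 0.087), which passed without TET2KO replicate 2 (-0.39), and -0.39 ± 0.12 with the trend removed (adjusted p = 0.024), which was lost without any 1 library except TET2KO replicate 2 (-0.43 to -0.30). The log2 TPM ratio of Slc25a33 to Slc25a36 was 1.21 ± 0.37 in TET2KO and 2.37 ± 0.31 in WT, a difference of -1.16 without overlap (exact p = 0.1, the smallest possible; 0.17 adjusted over 5 pairs).

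Slc25a17, the peroxisomal cofactor carrier, had 14.7, 22.6 and 15.7 CPM in TET2KO and 35.4, 30.3 and 30.9 CPM in WT. It fell as counted (-0.87 ± 0.20, adjusted p = 0.0091), and the estimate was 0.00 with the trend removed. Slc25a26, which carries S-adenosylmethionine, the methyl donor, had -0.60 ± 0.17 (adjusted p = 0.019), a call lost with the trend removed (-0.12), at 0.02 on log2(TPM + 1), and without any 1 library except TET2KO replicate 2 (-0.62 to -0.46). With merged exon length in the trend, Slc25a26 passed as lower. Slc25a51, the NAD carrier, did not pass as counted (-0.23, or -0.31 and past without TET2KO replicate 2) and fell with the trend removed (-0.76 ± 0.18, adjusted p = 0.0088), against 0.38 on log2(TPM + 1). Slc25a32 and Slc25a16 did not pass (-0.10 and -0.37), Slc25a16 passing without TET2KO replicate 2 (-0.43), and Slc25a32 passing without it only with the trend removed (-0.40).

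Of 4 tested carriers of iron and glutathione, 1 rose and 1 fell as counted (33.4% and 29.4% of all genes). With the trend removed 1 rose and 0 fell (21.9% and 24.3%). Slc25a37 (chr14:69241848-69285112, minus strand), mitoferrin-1, the iron importer best known from developing red cells, had 10.3, 4.77 and 8.16 CPM in TET2KO libraries, against 2.69, 1.80 and 1.51 CPM in WT libraries. No library of TET2KO overlapped with WT. It was 3.86-fold higher (log2 1.95 ± 0.36, adjusted p = 0.0065), and 1.39 ± 0.27 with the trend removed (adjusted p = 0.0053), while all 6 erythroid markers were lower, whose part in this result was not tested either. A gene with a copy of 382 nt of its sequence, Gm16867, had 112 reads over all libraries, and 2 genes on the opposite strand overlap its exons.

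Slc25a28, mitoferrin-2, the form of other tissues, had 14.6, 13.6 and 13.5 CPM in TET2KO and 11.7, 11.4 and 14.6 CPM in WT, with overlap (0.15, adjusted p = 0.47). It passed with libraries scaled to total reads (0.59) and on log2(TPM + 1) (0.75), and as lower with merged exon length in the trend (-0.96). The log2 TPM ratio of Slc25a28 to Slc25a37 was 2.5, 3.5 and 2.72 in TET2KO and 4.11, 4.65 and 5.26 in WT. These did not overlap, and differed by -1.76 (exact p = 0.1, adjusted 0.17), or by -0.66 as a ratio of TPM + 1.

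Slc25a40, a relative of the glutathione importer, had 9.44, 19.0 and 12.4 CPM in TET2KO and 30.3, 25.8 and 30.7 CPM in WT, without overlap. It fell as counted (-1.09 ± 0.26, adjusted p = 0.0098) but had -0.27 with the trend removed (adjusted p = 0.12), which passed without TET2KO replicate 2 (-0.36). With merged exon length in the trend, Slc25a40 passed as lower. Slc25a39, the glutathione importer, had 102, 89.2 and 101 CPM in TET2KO, against 80.1, 75.3 and 82.7 CPM in WT, without overlap, and did not pass (0.30, adjusted p = 0.11). It passed without TET2KO replicate 2 (0.38), with libraries scaled to total reads (0.73) and on log2(TPM + 1) (0.92). The log2 TPM ratio of Slc25a39 to Slc25a40 was 5.04, 3.84 and 4.64 in TET2KO and 3.01, 3.15 and 3.03 in WT, a difference of 1.44 without overlap (exact p = 0.1, adjusted 0.17), or 0.48 with the trend removed.

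**Figure D5:**
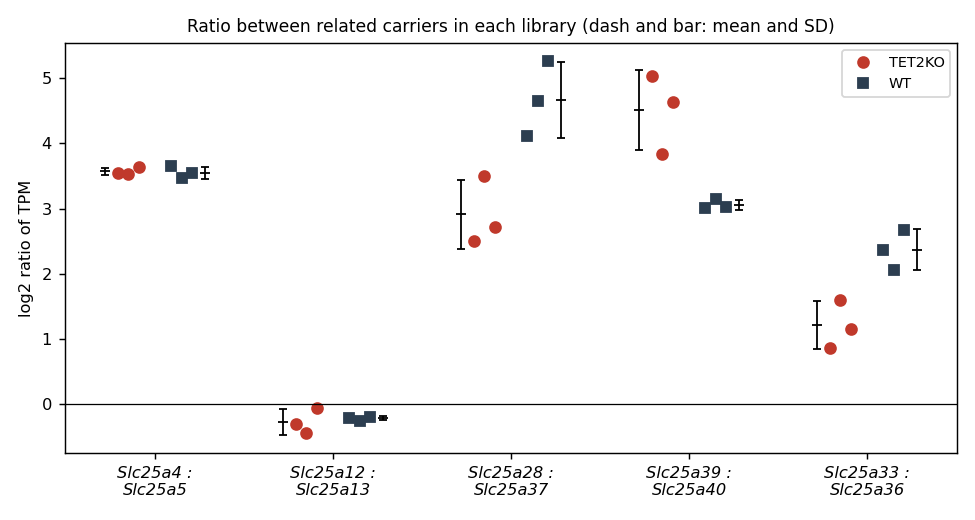
Log2 ratio of TPM between related carriers in each library, libraries labelled TET2KO (circles) left of those labelled WT (squares), with mean and SD. Slc25a4:Slc25a5 and Slc25a12:Slc25a13 overlap between the groups, and the 3 pairs with Slc25a37, Slc25a40 and Slc25a33 do not.

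Among 3 uncoupling-like carriers, 1 fell both ways (29.4% of all genes fell as counted and 24.3% with the trend removed). Slc25a14 had 1.86, 2.84 and 1.68 CPM in TET2KO and 5.09, 5.52 and 4.82 CPM in WT, without overlap. Its log2 fold change was -1.27 ± 0.27 (adjusted p = 0.0069), and -0.62 ± 0.20 with the trend removed (adjusted p = 0.031), a call lost without any 1 library except TET2KO replicate 2 (-0.70 to -0.51). Slc25a27 and Slc25a30 did not pass (0.02 and 0.32).

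Of 6 tested carriers whose substrate is unsettled or whose role is another, 1 fell as counted (29.4% of all genes) and 5 did not pass. Slc25a53 had 1.43, 1.47 and 1.24 CPM in TET2KO and 2.93, 2.98 and 2.13 CPM in WT, without overlap. Its log2 fold change was -0.96 ± 0.26 (adjusted p = 0.015), and -0.73 ± 0.23 with the trend removed (adjusted p = 0.032). The call as counted was lost without TET2KO replicate 3 (-0.85), WT replicate 1 (-0.90) or WT replicate 2 (-0.88), and that with the trend removed also without TET2KO replicate 1 (-0.80, -0.67, -0.66 and -0.65 over these 4 libraries).

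Slc25a34 had 130, 156 and 136 CPM in TET2KO and 151, 140 and 193 CPM in WT, with overlap. It did not pass as counted (-0.20 ± 0.19, adjusted p = 0.37), fell with the trend removed (-1.03 ± 0.24, adjusted p = 0.0095) and stood at 0.44 on log2(TPM + 1). Slc25a35 likewise had -0.36 (adjusted p = 0.16) as counted and -1.14 ± 0.21 (adjusted p = 0.0048) with the trend removed, against 0.22 on log2(TPM + 1), and shares 1151 nt of exon with Rangrf on the opposite strand. Slc25a46, an outer membrane member linked to mitochondrial shape, had 58.6, 61.7 and 61.3 CPM in TET2KO and 48.4, 52.4 and 46.2 CPM in WT, without overlap. It did not pass as counted (0.30, adjusted p = 0.091, or 0.31 and past without TET2KO replicate 2), and rose with the trend removed (0.53 ± 0.11, adjusted p = 0.0067). Slc25a45 and Slc25a47 did not pass (0.00 and -0.45), Slc25a47 passing with the trend removed and without TET2KO replicate 2 (-0.64).

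Relatives of the family under other symbols were Ucp2, Ucp3, Mtch1 and Mtch2, with Ucp1 not tested. Mtch2, which inserts proteins into the outer membrane, had 118, 249 and 160 CPM in TET2KO and 441, 396 and 476 CPM in WT, without overlap. It fell, at -1.32 ± 0.29 (adjusted p = 0.0073), and -0.99 with the trend removed (adjusted p = 0.0049). Ucp2, an uncoupling protein, had 53, 25 and 47.3 CPM in TET2KO and 15.5, 20.2 and 13.2 CPM in WT, without overlap, and rose as counted (1.35 ± 0.30, adjusted p = 0.0080), with 0.08 once the trend was removed (adjusted p = 0.70).

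Carriers reach the inner membrane through small chaperones of the intermembrane space and the TIM22 complex. Of the 9 genes of this route 2 were higher and 7 lower as counted (33.4% and 29.4% of all genes). With the trend removed 1 was higher and 6 were lower (21.9% and 24.3%). Timm10, a chaperone subunit, had 49, 109 and 68.3 CPM in TET2KO and 243, 212 and 276 CPM in WT, without overlap. The log2 fold changes of Timm10, Timm10b and Timm13 were -1.69 ± 0.30, -1.55 ± 0.26 and -1.25 ± 0.23 (adjusted p = 0.0065 each), and -0.50, -1.69 and -0.72 with the trend removed, all past the test.

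Other transporters of the inner membrane were split evenly, with 5 of 18 higher and 5 lower as counted (33.4% and 29.4% of all genes). With the trend removed 5 were higher and 4 lower (21.9% and 24.3%). Mcu, the pore of the calcium uniporter, had 16.2, 11 and 16.4 CPM in TET2KO and 4.66, 6.46 and 5.54 CPM in WT, without overlap. It rose, at 1.39 ± 0.24 as counted and 1.37 with the trend removed, and Slc8b1, the sodium/calcium exchanger, rose by 1.83 ± 0.29 (0.89 with the trend removed). Mpc2, a subunit of the pyruvate carrier, had 270, 629 and 395 CPM in TET2KO and 1465, 1217 and 1563 CPM in WT, without overlap, and fell by 1.71 on the log2 scale (SE 0.33; -0.80 with the trend removed). The adjusted p of Mcu, Slc8b1 and Mpc2 was 0.0065 as counted, and all 3 passed with the trend removed.

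Outer membrane channels and partners of the ADP/ATP carrier gave 2 of 8 higher and 3 lower as counted (33.4% and 29.4% of all genes). With the trend removed 5 were higher and 1 lower (21.9% and 24.3%). Hk1, a hexokinase that docks on mitochondria, had 155, 53.2 and 124 CPM in TET2KO and 18.6, 20.7 and 18.9 CPM in WT, without overlap, and rose by 2.51 ± 0.37 (adjusted p = 0.0065; 0.88 with the trend removed). Hk2 rose by 1.98 ± 0.42 (adjusted p = 0.0071; 0.53 with the trend removed, adjusted p = 0.049), and Tspo, the translocator protein, had -1.38 ± 0.27 (adjusted p = 0.0065; -0.50 with the trend removed, adjusted p = 0.011).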

How the data were processed

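RNA of 6 mid-ventricular heart samples (3 TET2KO, 3 WT) was sequenced as poly(A)-selected read pairs of 150 nt, per the labels' protocols. Per the submitters' processing notes, the tools were STAR 2.5.2b, Trimmomatic 0.36, DESeq2, and featureCounts with Subread 1.5.2. Neither annotation release nor strand setting is given in these sources. Raw counts of reads per gene were deposited by the authors, with TPM values, and a table with log2 fold changes, p-values and a normalised signal per library, per the file headers. The number of unmatched columns of per-sample values was 0.

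Counts were tested with edgeR 4.0.16 in R 4.3.3 (quasi-likelihood F-test, robust, TMM, filterByExpr, group only, Benjamini-Hochberg over all 14370 genes at 0.05). SE was obtained by dividing the size of the log2 fold change by the root of F. Length and GC were those of the transcript called longest here, from GENCODE M21 (GRCm38). It was the longest protein-coding transcript of a gene or, where there was none, its longest transcript. The trend was a smooth of each library's log2 CPM deviations on log2 length and GC (mgcv 1.9.3, prior count 2), entered as offsets. Alternatives used DESeq2 1.42.0 and limma 3.58.1. Single values were compared by two-sided exact permutation tests. The labels describe 3 biological replicates per group, and replicate pairs differed beyond counting noise. Same-numbered samples of the 2 groups did not deviate together. The edgeR test, as counted and with the trend removed, was run on simulated counts with known changes, with outcomes not given here.

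Members and lists were chosen with earlier results of these data known. Values of every library are given for the 8 members of highest TPM and those past both estimates. They are also given for the up to 8 largest rises and falls past the test with at least 1 CPM. Up to 3 genes were chosen per companion list, several of them given as fold changes only. Others named with values were chosen after these were seen. Marker lists covered cardiomyocytes, endothelium, fibroblasts, smooth muscle, leukocytes, erythroid cells and adipocytes. TPM retain no depth. GENCODE gave a length for 48970 of 49315 gene IDs. The values of 1 tested member, which is included in the counts, are not reported here.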

Additional observations from a re-analysis of the deposited data

How the results depend on the processing

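Counts of 5 higher and 13 lower members were the same with RLE size factors (32.2% and 30.2% of all genes) and with DESeq2 (33.7% and 31.2%). They became 5 and 9 without a filter (16% and 12.1%), 13 and 6 with total library size, and 16 and 1 on log2(TPM + 1) with limma. Leaving out 1 library gave 4 to 10 higher and 6 to 18 lower as counted (22.6% to 39.8% and 16.9% to 35.3% of all genes). With the trend removed, an alternative chosen after seeing the data, it gave 5 to 6 and 8 to 19 (13.4% to 27.8% and 13.7% to 30.5%). Merged exon length in the trend gave 6 and 18 (24% and 26.4%). The replicate numbers did not pair the samples (correlations of deviations 0.04, -0.29 and -0.03, with 1 of 6 samples closest to its own number). With the replicate block 4 were higher and 9 lower (28.3% and 24.7% of all genes), Slc25a4 moving to -0.96 (adjusted p = 0.052), and with block and trend removal 6 and 12 (19.1% and 20.8%).

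The summed level, -0.85 in CPM, was -0.66 in CPM without Slc25a4, -0.24 in TPM and -0.04 in TPM without Slc25a4. With the trend removed it was -0.45. The share difference of Slc25a20, -0.27 points by TPM, was -0.54 by summed counts and -0.53 by longest transcript, and that of Slc25a3, 0.48 points, was 1.02 by longest transcript. The Slc25a4:Slc25a5 ratio difference of 0.02 was -0.61 with the trend removed and -0.03 to 0.06 over left-out libraries. The Slc25a12:Slc25a13 ratio difference of -0.04 was -1.02 with the trend removed and -0.15 to 0.04 over left-out libraries. With the trend removed Slc25a39:Slc25a40 moved from 1.44 to 0.48, and TPM + 1 took Slc25a28:Slc25a37 from -1.76 to -0.66. The Slc25a22:Slc25a18 ratio was not run, since Slc25a18 had 0 reads in WT replicate 3.

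Several single members changed sign. Slc25a5 was 0.02 with the trend removed, also with the block, and -0.04 to 0.02 over left-out libraries with the trend removed (0.00 without TET2KO replicate 2). Slc25a17 was 0.00 with block and trend removal, and 0.02 and 0.04 without TET2KO replicate 3 and WT replicate 1 with the trend removed. Slc25a25 was -0.08 and Slc25a16 0.04 with the trend removed, neither of them past the test. On log2(TPM + 1), Slc25a23 was 0.48, Slc25a11 0.07, Slc25a51 0.38, Slc25a26 0.02 and Slc25a34 0.44. Slc25a12, Slc25a13 and Slc25a35 changed sign on that scale too. Slc25a15, Slc25a16, Slc25a32, Slc25a36 and Slc25a47, negative as counted, also had a higher mean TPM in TET2KO than in WT. Slc25a28 was -0.96 with merged exon length in the trend. The cause of these changes was not tested. The median log2 fold change of all genes was 0.05 with TMM, 0.47 with total library size and 0.41 on log2(TPM + 1). That of the members was -0.24, 0.18 and 0.34 in the same order. With 3 samples a group, an exact permutation p cannot go below 0.1.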

Other observations

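The authors' deposited table listed 5 of the 39 members as higher and 14 as lower at an adjusted p of 0.05, and 38 calls were the same as those given here. In the authors' deposited table Slc25a16, a carrier tied to coenzyme A, was the exception, at -0.42 with an adjusted p of 0.048.

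Marker lists of other cell types gave the following sums. Fibroblast markers summed to 797 to 853 CPM in libraries labelled TET2KO and 1126 to 1210 CPM in those labelled WT, with 3 of 7 higher and 4 lower. Smooth muscle and pericyte markers summed to 1130 to 1897 CPM in TET2KO and 2174 to 2323 CPM in WT, with 2 of 7 higher and 3 lower. Macrophage and leukocyte markers summed to 121 to 127 CPM in TET2KO and 130 to 150 CPM in WT, with 2 of 7 tested higher and 1 lower, but to 213 to 234 TPM in TET2KO and 175 to 188 TPM in WT, the opposite order. Summed TPM of the fibroblast and of the smooth muscle markers overlapped between the groups. Adipocyte markers summed to 36.5 to 50.1 CPM in TET2KO and 43.1 to 50.2 CPM in WT, and 0 of 3 tested passed as counted by edgeR's quasi-likelihood test. With the trend removed 2 of these 3 were higher (21.9% of all genes). In TPM the adipocyte markers summed to 71.9 to 87.6 in TET2KO and 52.2 to 57.6 in WT, without overlap. Beside these marker counts, 33.4% of all genes were higher and 29.4% lower as counted. The part of these cell types in the carriers' levels was not tested.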
